A study of Mus musculus with 4 samples.

Results

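The genes described here copy the genome and supply the nucleotides for it: 40 genes, chosen by name from their known roles and not by their values, of 39017 in the count table. They comprise 10 genes of origin licensing, 6 of helicase activation, 7 polymerase and primase subunits, 5 genes of the sliding clamp and its loader, 2 of Okazaki fragment joining, 2 subunits of the single-strand binding complex RPA, 5 of nucleotide supply and 3 of chromatin copying. All 40 were found by symbol, and all 40 had a mean CPM (read count scaled to a common library size) of at least 1, as did 14225 genes in all, which are called the genes tested. The genes lie on 14 chromosomes. Their counts per tumor ran from 21 to 1558.

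RNA came from 4 lung tumors of male C57BL/6 mice of the KP model, in which both Trp53 alleles are floxed and Cre recombinase starts lung adenocarcinoma. Each mouse received 1500 viral units of a lentivirus into the trachea, in which the PGK promoter, active in most cell types, drives Cre, and tumors were dissected at 22 weeks and 5 days. The 4 tumors were the only group, labelled Control, with 1 library per tumor from an unsorted cell suspension. The labels add "heterozygous fl/wt" without a gene name, the deposited log2 table marks the same tumors WT, and according to the published methods controls could be wild type or carry a single floxed Slc2a1 allele. Nothing in the labels says whether the tumors came from separate mice, so the p-values measure only the spread between these samples, which may in part be technical. Total counts were between 8151613 and 8799007.

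Before a cell divides, the origin recognition complex, Cdc6 and Cdt1 load the Mcm2 to Mcm7 helicase onto DNA in G1, and in S phase Cdc45 and the GINS complex join the helicase and start it. Primase and DNA polymerase alpha lay down primers, polymerases epsilon and delta copy the leading and lagging strands while held by the PCNA clamp, and ribonucleotide reductase makes the deoxynucleotides. Many of these genes are transcribed at the G1 to S transition under E2F factors, and in a lung tumor their transcripts come from cycling tumor cells as well as from dividing immune and stromal cells.

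Promoters are shown first, since the stretches below hold the letters that E2F factors are known to bind. The letters searched on both strands were TTTCCCGC, TTTGGCGC, TTTCGCGC and TTTGCCGC, in windows from 250 bases before to 50 bases after each start in the RefSeq table (GRCm38.p6). Such letters occurred in 14 of the 33 genes with a window (42.4%), against 4.49% of the genes tested and 2.60% of all genes in that table. Matches are in capitals and the rest is in lower case, read 5′ to 3′ on the strand of the gene. Mcm6 (chr1:128359725-128359835, minus strand) and Mcm5 (chr8:75109336-75109387, plus strand) are shown because they encode partner subunits of the helicase and each holds an overlapping pair of matches. Cdc6 (chr11:98907993-98908040, plus strand) and Uhrf1 (chr17:56304108-56304155, plus strand) are among the genes with the widest range between tumors, and Pola1 (chrX:93632266-93632313, minus strand) is a polymerase subunit.
Mcm6: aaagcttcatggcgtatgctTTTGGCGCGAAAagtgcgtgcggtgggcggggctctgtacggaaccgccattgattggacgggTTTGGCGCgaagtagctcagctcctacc
Mcm5: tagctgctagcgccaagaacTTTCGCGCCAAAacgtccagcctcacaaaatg
Cdc6: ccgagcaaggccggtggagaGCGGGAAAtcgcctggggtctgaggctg
Uhrf1: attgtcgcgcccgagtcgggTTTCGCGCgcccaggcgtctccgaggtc
Pola1: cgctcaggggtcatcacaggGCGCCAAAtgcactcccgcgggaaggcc

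The other genes with a match were Orc1, Cdt1, Mcm3, Mcm7, Gins3, Pole2, Pold1, Rfc3 and Lig1. Promoters of Mcm4, Gins1, Gins2, Gins4, Prim2, Pole and Rfc2 were not analysed. The match of Orc1, which lies within an annotated exon, was at chr4:108579416-108579445 on the plus strand.
Orc1: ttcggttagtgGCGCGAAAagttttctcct
Among further lists described below, the E2F type occurred in 6 of 9 S phase control genes with a window. It occurred in 6 of 23 other replication genes and in 1 of 17 other nucleotide genes with a window. The E2F type was thus not particular to the replication genes chosen here. Mitosis genes differed in their letters. The E2F type occurred in 1 of 17 mitosis genes with a window, whereas TTTGAA, the CHR type known from genes of G2 and mitosis, occurred in 12 of those 17, in 4 of the 33 replication genes and in 14.3% of the genes tested. Top2a, which encodes topoisomerase II alpha and was named among mitosis genes for its level, is shown at chr11:99024195-99024224 on the minus strand.
Top2a: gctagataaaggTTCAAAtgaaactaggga
CCAAT was present in 20 of the 33 replication genes, 15 of the 17 mitosis genes and 42.5% of the genes tested. GGGCGG, the Sp1 type, was present in 25 of the 33 and in 67.4% of the genes tested. These matches describe the letters of the windows and not binding.

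Across the 4 tumors the replication genes shared an order. They were mostly highest in tumor 1 and lowest in tumor 4. Their summed CPM was 1791 in tumor 1, 1653 in tumor 2, 1523 in tumor 3 and 1212 in tumor 4. Tumor 1 held the highest value of 25 of the 40 genes, against 31.4% of the genes tested, and tumor 4 held the highest of 0 of the 40, against 18.0%. Tumors 2 and 3 were highest for 9 and 6 genes, where the shares of the genes tested were 20.4% and 30.2%. The lowest value lay in tumor 4 for 30 of the 40 genes, against 17.7% of the genes tested. It lay in tumor 3 for 7 genes (background 32.5%), in tumor 2 for 2 genes, Mcm10 and Gins4 (19.4%), and in tumor 1 for 1 gene, Dut (30.4%). The plot of the tumors with the highest and lowest level sets these shares side by side.

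**Figure D1:**
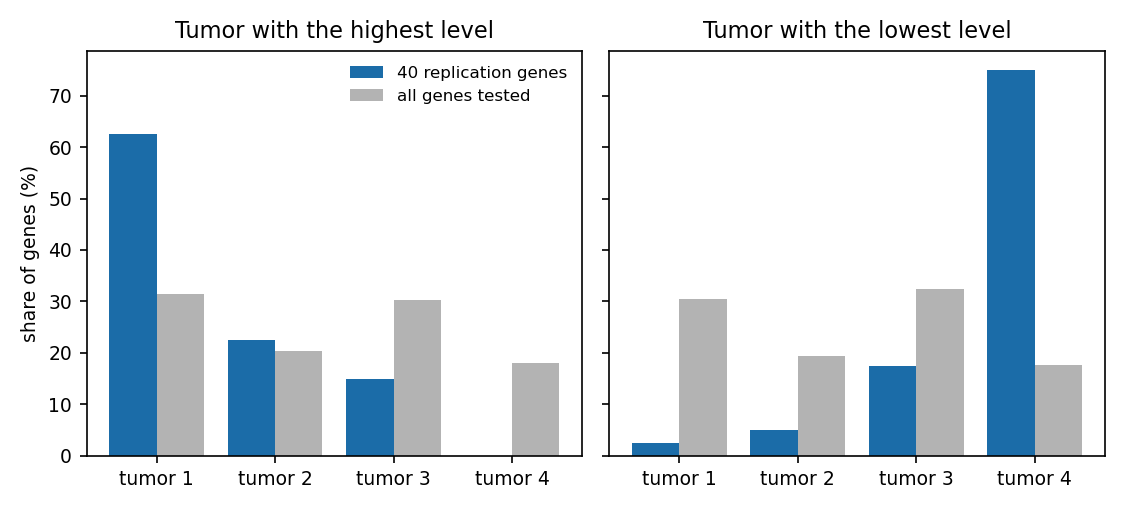
Share of genes (%) whose highest (left) or lowest (right) CPM lay in each of the 4 tumors, for the 40 replication genes (blue) and for the 14225 genes tested (gray). Tumor 4 was lowest for 75.0% of the replication genes and for 17.7% of the genes tested.

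In 39 of the 40 genes the level was higher in tumor 1 than in tumor 4, against 50.0% of the genes tested, and the exception was Dut. The median log2 difference was 0.59 over the 40 genes and 0.00 over the genes tested. Tumor 2 was above tumor 4 in 37 genes and tumor 3 was above tumor 4 in 31, against 49.5% and 48.5% of the genes tested. Among the first 3 tumors the order was less uniform, with tumor 1 above tumor 2 in 27 genes, tumor 1 above tumor 3 in 29 and tumor 2 above tumor 3 in 26. Over the genes tested the shares for these pairs were 50.4%, 51.1% and 51.4%. In 16 genes tumor 1 was highest and tumor 4 lowest (background 7.1%). The genes share their libraries, so these counts describe 4 tumors and not 40 separate observations.

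The highest value was at least 2-fold the lowest in 4 of the 40 genes, Orc1, Cdc6, Chaf1a and Uhrf1, against 28.5% of the genes tested. Without tumor 1 or without tumor 4 the number was 1, and with counts scaled to library totals only it was 7. The shares of the genes tested in these settings are not given here. Just inside the 2-fold limit was Uhrf1 with a ratio of 2.00, and just outside were Mcm6 with 1.99 and Rpa2 with 1.99. Among the 10456 genes tested whose mean CPM lay between 5.03 and 161, as those of the replication genes did, 21.0% reached 2-fold. The median SD of log2 CPM was 0.31 over the 40 genes, 0.29 over the genes tested and 0.26 over those of like level, and the median ratio of highest to lowest was 1.58, 1.58 and 1.51. Set against Poisson counting error by a chi-square test, with Benjamini-Hochberg adjustment over all genes tested, 33 of the 40 genes varied beyond counting noise at an adjusted p under 0.05, against 76.7% of the genes tested and 80.1% of those of like level. This share was near the background. Leaving out tumor 4 lowered it most, to 24 of the 40 genes, but the share of all genes tested is not given for that setting. This fall can therefore not be called particular to the 40 genes. One tumor stood apart by the Dixon ratio, the gap to the nearest tumor over the whole range, in 3 of the 40 (Mcm10, Prim2 and Fen1), against 5.86% of the genes tested. The chi-square test compares these libraries and not conditions.

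**Figure D2:**
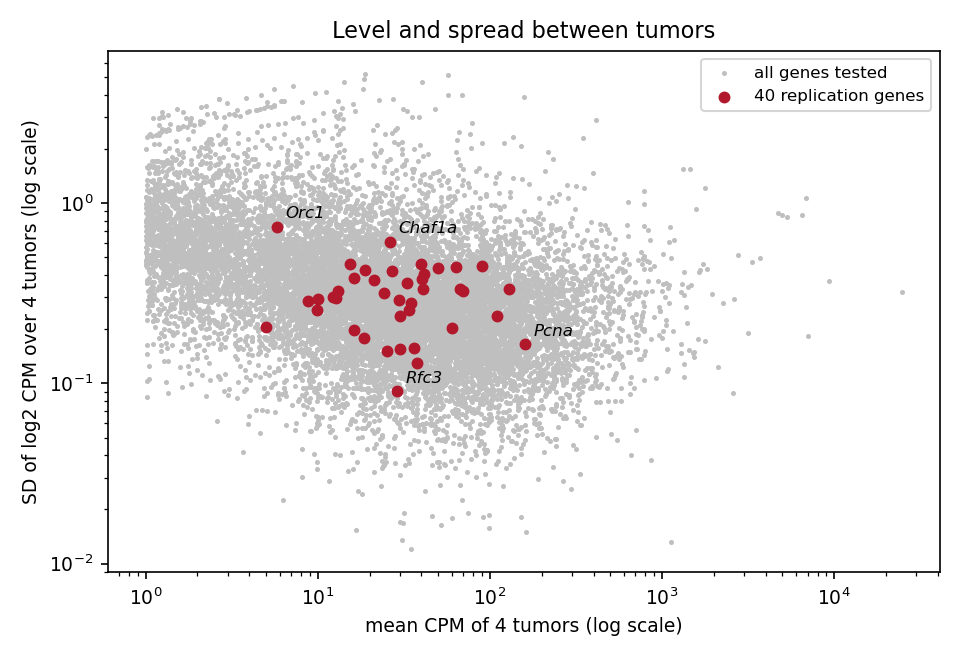
SD of log2 CPM over the 4 tumors (log scale) against mean CPM (log scale), for each of 14225 genes tested (gray) and the 40 replication genes (red). The replication genes lie inside the cloud of genes of like level, with Orc1 (SD 0.74) and Chaf1a (0.61) highest among them and Rfc3 (0.09) lowest.

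Origin licensing was the role group that lay lowest in tumor 4 relative to the other tumors, by a mean log2 difference of -0.67. The mean log2 CPM of its 10 genes was 5.47, 5.43, 5.26 and 4.71 in tumors 1 to 4. All 10 varied beyond counting noise, and 9 were lowest in tumor 4, Mcm7 being the exception, against 76.7% and 17.7% of the genes tested. Orc1, the largest subunit of the origin recognition complex, had 8.03, 6.62, 6.17 and 2.50 CPM in tumors 1 to 4. Its ratio of highest to lowest, 3.22 (adjusted p 4.0e-05), was the largest of the 40 genes. The value in tumor 4 rests on 21 counts, and its exact 95% Poisson interval of 1.55 to 3.82 CPM lay below that of each other tumor, the nearest being 4.58 to 8.13 CPM in tumor 3. Without tumor 4 Orc1 was not called (adjusted p 0.37). Such intervals cover counting error only.

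Cdc6, which recruits the helicase to the origin, had 21.2, 16.6, 13.6 and 9.99 CPM, highest in tumor 1 and lowest in tumor 4 (2.13-fold, adjusted p 6.1e-08). Cdt1, its partner in helicase loading, had 16.0, 12.5, 10.2 and 10.2 CPM, with tumors 3 and 4 nearly equal, and it was not called without tumor 1 (adjusted p 0.32). Orc6, the smallest subunit of the origin recognition complex, had 38.8, 39.0, 54.9 and 31.4 CPM and was highest in tumor 3. The exons of Orc6 overlap those of Vps35 on the opposite strand, whose counts were also highest in tumor 3 (3233 against 2321 to 2507), and the part of this overlap in the value was not tested. The other origin recognition subunits behaved differently from Orc1, and Orc2, Orc3 and Orc5 are named here after their values were seen. Orc4 had 69.8, 73.4, 105 and 85.5 CPM and Orc3 had 48.0, 51.1, 68.9 and 57.0 CPM, so both were lowest in tumor 1. Orc2 and Orc5 were lowest in tumor 2, and none of these 4 subunits was lowest in tumor 4.

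Among the helicase subunits, Mcm6 had 109, 101, 94.7 and 54.9 CPM, so that tumors 1 to 3 lay close together and tumor 4 lay far below (adjusted p 1.2e-34). Mcm5 had 51.7, 55.8, 61.8 and 31.3 CPM and Mcm3 had 77.9, 73.6, 70.3 and 47.0 CPM, again lowest in tumor 4. Without tumor 4, Mcm3 was not called (adjusted p 0.27). Mcm2 had 73.9, 85.0, 52.4 and 43.8 CPM and Mcm4 had 63.5, 92.2, 70.2 and 54.0 CPM, both highest in tumor 2. In contrast, Mcm7 had 129, 120, 93.4 and 95.1 CPM, with tumors 3 and 4 nearly equal. Mcm7 overlaps exons of Cops6 and Ap4m1 on the opposite strand and holds microRNA genes in its introns and exons, so its count is less certain than those of the other subunits. The log2 difference between tumors 1 and 4 ran from 0.23 for Mcm4 to 0.99 for Mcm6 within this one complex.

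**Figure D3:**
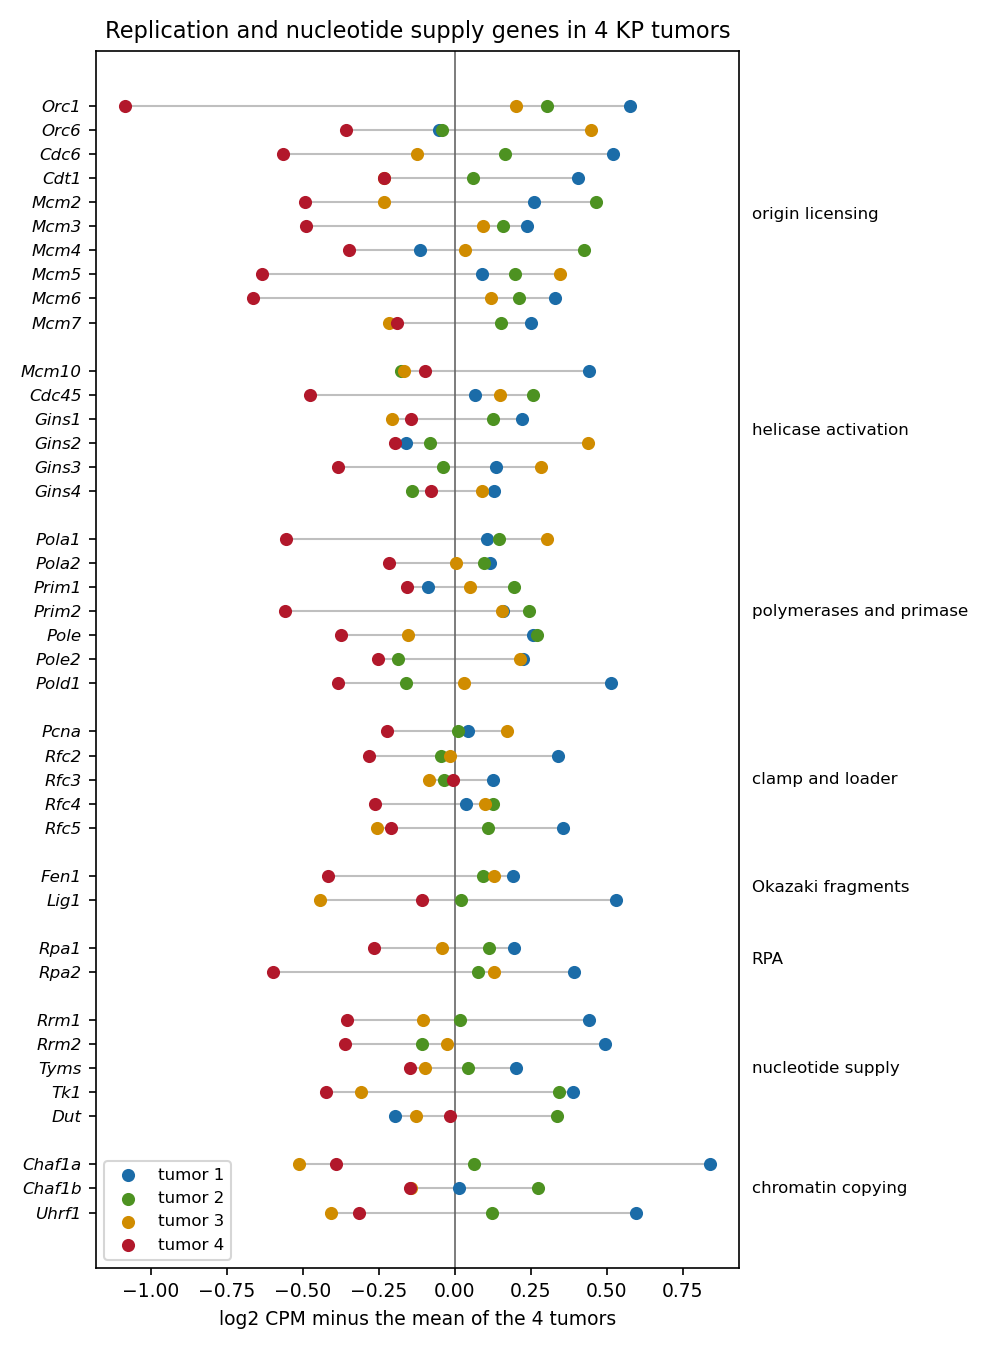
Log2 CPM of each of the 40 genes in each tumor, minus the mean of the 4 tumors for that gene, ordered by role. Gray lines join the lowest and highest tumor. Tumor 4 (red) is leftmost in 30 genes and tumor 1 (blue) is rightmost in 25.

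Helicase activation had the lowest share of calls. Of its 6 genes 3 were called beyond counting noise, namely Mcm10, Cdc45 and Gins2, against 76.7% of the genes tested. Cdc45, which travels with the helicase, had 13.5, 15.4, 14.3 and 9.28 CPM and was lowest in tumor 4 (adjusted p 0.0045, and 0.59 without tumor 4). Mcm10, which helps to start the helicase, had 17.2, 11.2, 11.2 and 11.8 CPM, so that tumor 1 stood apart from the other three, and it was not called without tumor 1 (adjusted p 0.93). Gins2 had 8.80, 9.29, 13.3 and 8.56 CPM and was highest in tumor 3 (adjusted p 0.0086, and 0.90 without tumor 3), as was Gins3 with 9.57, 8.48, 10.6 and 6.66 CPM (adjusted p 0.057). Gins1 and Gins4 had ranges of 1.35-fold and 1.21-fold (adjusted p 0.47 and 0.062). Gins1 had the lowest mean CPM of the 40 genes, 5.03.

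All 7 polymerase and primase genes were lowest in tumor 4, and 5 of them were called beyond counting noise. The shares of the genes tested were 17.7% and 76.7%. Pola1, the catalytic subunit of polymerase alpha, had 42.6, 43.7, 48.7 and 26.9 CPM. Prim2, the large primase subunit, had 23.1, 24.5, 23.1 and 14.0 CPM, which is the same shape of 3 like values and a low tumor 4. Without tumor 4, Pola1 and Prim2 were not called (adjusted p 0.14 and 0.80). Their partners Pola2 (27.1, 26.7, 25.1 and 21.5 CPM, adjusted p 0.11) and Prim1 (28.1, 34.2, 30.9 and 26.8 CPM, adjusted p 0.035) spread less. For polymerase delta, Pold1 had 22.7, 14.2, 16.2 and 12.1 CPM and was highest in tumor 1 (adjusted p 5.4e-07, and 0.13 without tumor 1), whereas Pole, the catalytic subunit of polymerase epsilon, had 28.4, 28.7, 21.3 and 18.3 CPM. Pole2, the second subunit of polymerase epsilon, was between 8.21 and 11.4 CPM (adjusted p 0.064).

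The clamp and its loader had the smallest median SD of log2 CPM among the role groups, 0.18. Pcna had 165, 161, 180 and 137 CPM (1.32-fold, adjusted p 3.0e-10), the highest mean CPM of the 40 genes, with a narrow range in which tumor 3 was highest and tumor 4 lowest. Rfc3, a loader subunit, was nearly level, with 31.5, 28.1, 27.1 and 28.7 CPM (1.16-fold, adjusted p 0.40), and Rfc4 was not called either (15.3 to 20.1 CPM, adjusted p 0.11). Rfc2 had 42.5, 32.5, 33.2 and 27.6 CPM and Rfc5 had 37.4, 31.5, 24.4 and 25.2 CPM, both highest in tumor 1 and both called, Rfc2 only with tumor 1 included (adjusted p 0.11 without it). In Okazaki fragment joining, the flap nuclease Fen1 had 39.2, 36.6, 37.5 and 25.7 CPM, with tumor 4 apart (adjusted p 0.73 without it), and the ligase Lig1 had 58.4, 41.0, 29.7 and 37.6 CPM, lowest in tumor 3. Rpa2 had 34.6, 27.8, 28.8 and 17.4 CPM and Rpa1 had 68.7, 64.8, 58.2 and 49.8 CPM. Both RPA subunits were thus lowest in tumor 4, by log2 differences from tumor 1 of 0.99 and 0.46.

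Of the 5 nucleotide supply genes, 4 were highest in tumor 1 and lowest in tumor 4, against 7.1% of the genes tested. Rrm1 and Rrm2, the large and small subunits of ribonucleotide reductase, had 171, 128, 117 and 98.8 CPM and 45.7, 30.1, 31.8 and 25.2 CPM. Tk1, which salvages thymidine, had 23.9, 23.1, 14.7 and 13.6 CPM, with tumors 1 and 2 alike and above tumors 3 and 4. Tyms, which makes thymidylate, had 41.4, 37.1, 33.6 and 32.5 CPM (1.27-fold, adjusted p 0.013). Dut, which removes dUTP and provides the precursor of thymidylate, had 26.0, 37.6, 27.3 and 29.5 CPM, lowest in tumor 1 and highest in tumor 2 (adjusted p 5.7e-05). All 5 genes were called beyond counting noise, against 76.7% of the genes tested. However, Rrm2 and Tyms were not called without tumor 1 (adjusted p 0.052 and 0.30), nor Dut without tumor 2 (0.41).

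Of the 3 chromatin genes, 2 were highest in tumor 1, against 31.4% of the genes tested. Chaf1a, the large subunit of the histone chaperone CAF-1, had 43.6, 25.4, 17.0 and 18.6 CPM (2.56-fold, adjusted p 7.7e-31), and Uhrf1, which brings the maintenance DNA methyltransferase to new DNA, had 57.9, 41.7, 28.9 and 30.8 CPM. Both were lowest in tumor 3, with tumor 4 close to it. Chaf1b, the partner of Chaf1a in CAF-1, had 16.4, 19.6, 14.7 and 14.6 CPM and was only just called (adjusted p 0.047). Per kilobase of transcript, the ratio of Chaf1a to Chaf1b was 0.92 in tumor 1 and 0.45, 0.40 and 0.44 in the others. Exons of Chaf1a overlap those of Ubxn6 on the opposite strand. The counts of Ubxn6, not scaled to library size, were 377, 250, 256 and 350 in tumors 1 to 4, so tumors 1 and 4 were close. The part of this overlap in the value of Chaf1a was not tested.

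**Figure D4:**
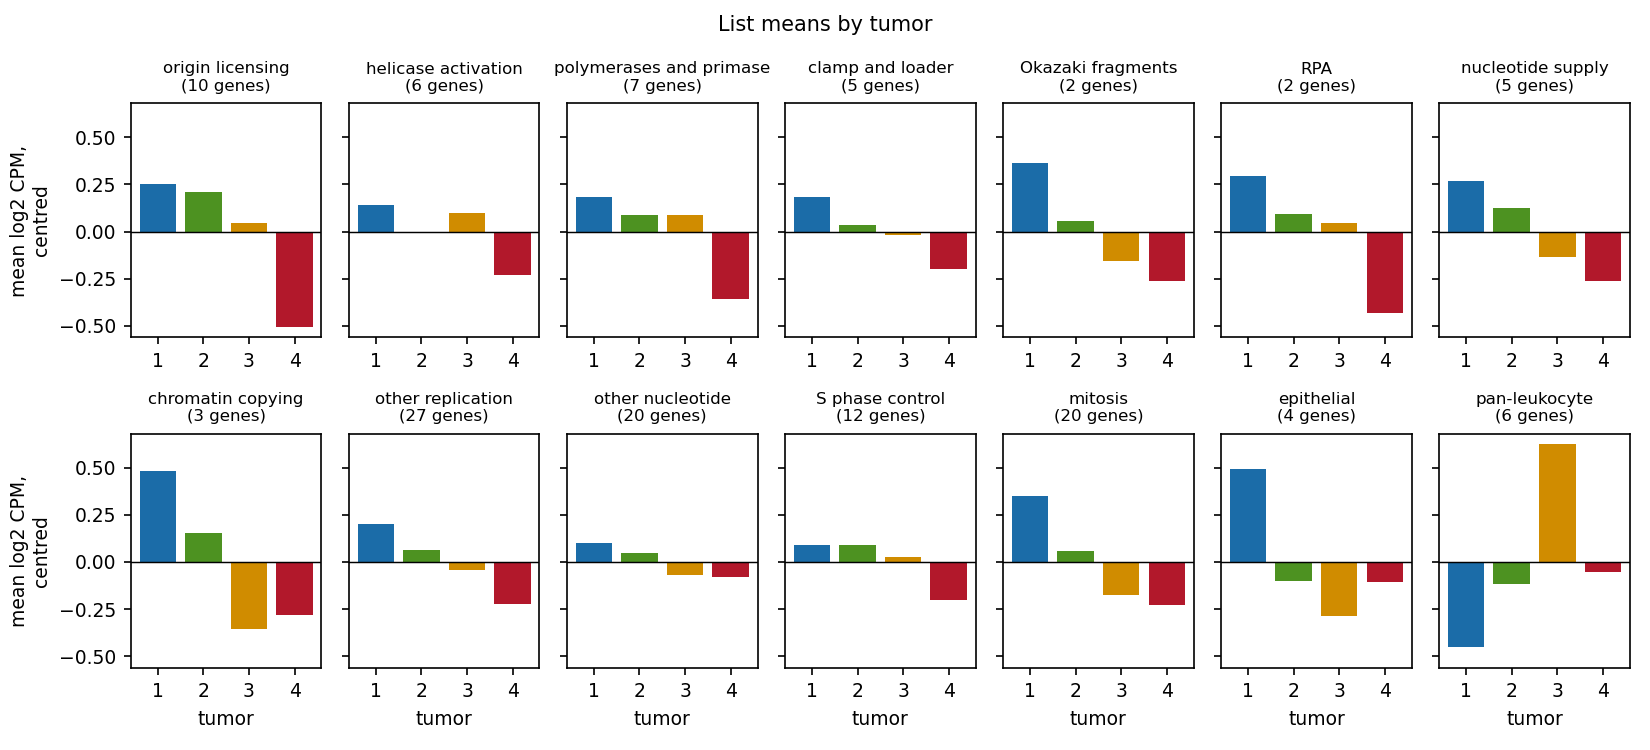
Mean log2 CPM of each list of genes in tumors 1 to 4, minus the mean of the 4 tumors, with the number of genes in brackets. The 8 role groups were lowest in tumor 4 except chromatin copying, the mitosis list followed a similar order, and the epithelial list was high in tumor 1.

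Compared per length, subunits of one complex differed in level. Levels per length (TPM, counts per kilobase scaled to a common sum) were computed from the counts with the longest annotated protein-coding transcript of each gene. Pcna had the highest level of the 40 genes, 250 ± 29.4 TPM (SD, n = 4), followed by Mcm7 with 87.4 ± 15.2 TPM. With the union of exons as length Pcna was again highest (220 TPM), and Gins4 (91.8 TPM) came before Mcm7 (81.4 TPM). Mcm7 was the highest of the 6 helicase subunits in 4 of 4 tumors, and the order of the other 5 changed between tumors. Gins4, at 66.0 ± 6.99 TPM, exceeded the lowest GINS subunit, Gins2, by 11.2-fold ± 2.05 (SD, n = 4), and Gins4 was highest in every tumor. Prim1 was the highest of the 4 polymerase alpha and primase subunits in every tumor.

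The ratio of Rrm1 to Rrm2 stayed within a narrow range, at 2.06, 2.33, 2.02 and 2.15 in tumors 1 to 4, although the summed TPM of both was 154 in tumor 1 and 84.8 in tumor 4. A change of length multiplies this ratio by the same factor in every tumor, so it cannot test that steadiness. With the union of exons as length, the ratio of higher to lower subunit averaged 1.05 over the 4 tumors. The mean was then 39.5 TPM for Rrm2 and 38.6 TPM for Rrm1, although Rrm1 was the higher in tumor 2. Which of them was higher therefore depends on the length chosen. Likewise Rfc3 was above Rfc4 with 1 length and below it with the other. In the mean of the 4 tumors, Mcm7, Gins4, Prim1 and Chaf1b were the highest of their complexes under both lengths. With the union of exons, however, Chaf1a was above Chaf1b in tumor 1.

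**Figure D5:**
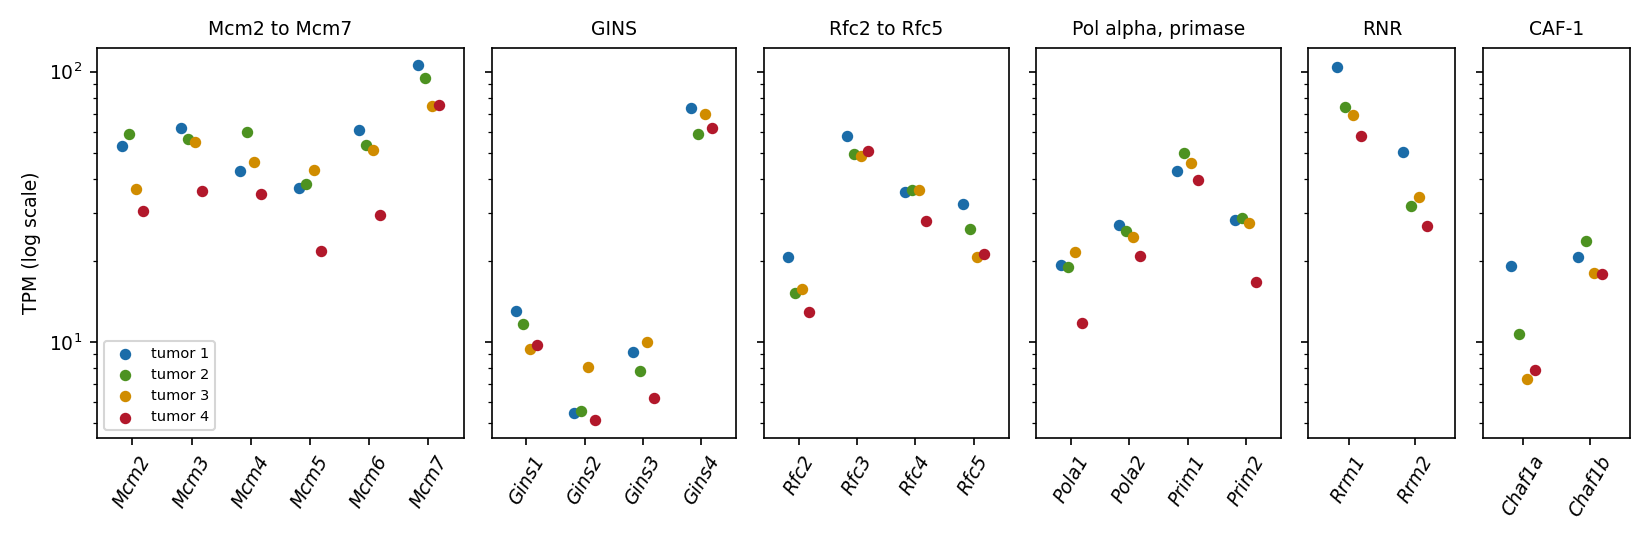
TPM (log scale) of the subunits of 6 replication complexes in each of the 4 tumors, from the longest protein-coding transcript of each gene. Pol alpha is DNA polymerase alpha, RNR ribonucleotide reductase and CAF-1 the histone chaperone. Gins4 and Mcm7 lie above their partners in every tumor, and the Rrm1 and Rrm2 points move in parallel.

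Other genes of replication shared the order less closely. Of 27 further replication genes, all tested, 23 were called beyond counting noise, 14 were lowest in tumor 4 and 11 highest in tumor 1. The shares of the genes tested were 76.7%, 17.7% and 31.4%. Over these 27 genes the median log2 difference between tumors 1 and 4 was 0.35. Chtf18, of an alternative clamp loader, had 9.24, 5.23, 2.34 and 2.74 CPM, and Recql4, which acts at origins, had 7.59, 4.30, 4.81 and 2.74 CPM. Pold2, a polymerase delta subunit, had 31.8, 22.8, 12.6 and 18.9 CPM. The abundant genes Topbp1 (69.5 to 108 CPM) and Rfc1 (62.4 to 78.2 CPM) were lowest in tumor 4. The share of all squared deviations that lay in the mean profile of the list, which is 100% when all genes move in parallel, was 51.8% for the 40 genes and 26.9% for these 27. It was 67.5% for the 20 mitosis genes described below, so moving in parallel was not particular to the 40 genes.

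Of 20 other nucleotide genes, 19 were called and 6 were lowest in tumor 4, against 76.7% and 17.7% of the genes tested, and their mean profile held 8.63% of the squared deviations. Paics, of purine synthesis, had 503, 481, 559 and 555 CPM, Samhd1, which degrades deoxynucleotides, had 113, 105, 138 and 128 CPM, and Shmt1, of folate metabolism, had 137, 144, 93.2 and 113 CPM. None of these was lowest in tumor 4. Impdh2 (27.8 to 59.7 CPM), Cad (26.2 to 51.7 CPM) and Dctpp1 (11.5 to 29.6 CPM) were each lowest in tumor 3. Of 12 genes of S phase control, 10 were called and 5 were lowest in tumor 4, against the same 76.7% and 17.7% of the genes tested. Ccne2, a cyclin of S phase entry, had 30.7, 26.0, 28.5 and 13.7 CPM, and its relative Ccne1 had 15.1, 16.3, 13.1 and 8.80 CPM. E2f3 was nearly level (44.7 to 50.2 CPM, adjusted p 0.40), and Cdk2 was lowest in tumor 1 (39.8 CPM against 49.4 to 52.9). Ccna2, a cyclin of S phase and G2, was lowest in tumor 3, with 87.4, 56.6, 38.0 and 53.6 CPM.

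Mitosis genes also followed this order. Their mean log2 CPM was 5.52, 5.23, 4.99 and 4.94 in tumors 1 to 4, and that of the 40 genes was 5.05, 4.91, 4.79 and 4.47. All 20 were called beyond counting noise, 18 were highest in tumor 1 and 13 lowest in tumor 4. The shares of the genes tested were 76.7%, 31.4% and 17.7%. In 19 of the 20 the level was higher in tumor 1 than in tumor 4, against 50.0% of the genes tested. The median log2 difference between these tumors was 0.59 both for the mitosis list and for the 40 genes. Mki67, the proliferation marker, had 228, 189, 215 and 178 CPM and Top2a had 185, 142, 127 and 103 CPM. Prc1, which bundles the spindle midzone, was lowest in tumor 4 (58.3 to 76.3 CPM), as were Aurkb (9.99 to 19.4 CPM) and Ccnb1 (26.9 to 52.2 CPM), a kinase and a cyclin of mitosis, and the mitotic kinase Plk1 was lowest in tumor 3 (6.17 to 13.5 CPM). The 40 genes minus the mitosis list gave -0.47, -0.32, -0.20 and -0.47 in tumors 1 to 4 (mean -0.37 ± 0.13, SD, n = 4). Tumors 1 and 4 thus had nearly equal differences between the lists, and the drop from tumor 3 to tumor 4 was larger for replication genes (4.79 to 4.47) than for mitosis genes (4.99 to 4.94). These differences were not tested, because 4 tumors in 1 group allow no comparison of groups.

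Markers of cell types also differed between the tumors. The epithelial mean was highest in tumor 1, like that of the replication genes, but it was lowest in tumor 3. Because the tumors were bulk samples, fewer cycling cells and less RNA per cell cannot be told apart. The 4 epithelial markers (Epcam, Cdh1, Krt8 and Krt18), all detected, had a summed CPM of 3972 in tumor 1 and of 2488 to 2632 in the others. Of the 4, 3 were highest in tumor 1, whereas Cdh1 was nearly level and lowest in tumor 1 (842, 887, 846 and 876 CPM in tumors 1 to 4). The epithelial mean used below rests on this mixed list. With the epithelial mean subtracted in each tumor, the difference of the 40 genes between tumors 1 and 4 went from 0.58 to -0.020, and the genes lowest in tumor 4 went from 30 to 19. That subtraction moves all genes alike, and of the genes tested it left 6.36% lowest in tumor 4 and 77.5% lowest in tumor 1. The epithelial mean log2 CPM was 9.89, 9.30, 9.11 and 9.29 in tumors 1 to 4.

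The 10 alveolar type 2 markers, of a cell type from which KP tumors commonly arise, summed to 33911 CPM in tumor 1 and to 55042 to 62401 CPM in the others. Pan-leukocyte markers (6 genes) summed to 526 CPM in tumor 1 and to 724 to 832 CPM in the others. Their mean log2 CPM was highest in tumor 3, where T cell markers, of which 4 of 8 were tested, summed to 23.9 CPM against 6.71 to 7.67 CPM. The part of these cell types in the order of the replication genes was not tested. No marker was at 0 in all 4 tumors, and the B cell marker Pax5 was at or below 3 counts in each.

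Genes with an E2F type match had a median log2 difference between tumors 1 and 4 of 0.69 (14 genes), and those without one in the window had 0.54 (19 genes). Of the former 10 were lowest in tumor 4 and 11 highest in tumor 1, and of the latter 15 and 11. The groups therefore overlapped in their order. Of the 40 genes, 19 share exons or near-identical stretches with another annotated gene and 21 do not, and counts of the former are less certain, since the strand setting of the counting is not given in the sources used here.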

How the data were processed

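RNA of 4 lung tumors was sequenced, with 1 library per tumor. Single-end reads were trimmed (Cutadapt) and aligned to mm10 (HISAT2) by the authors, who deposited raw counts per Ensembl gene. The submitters' processing notes name featureCounts 1.4.4, cutadapt 1.4.2 and bcl2fastq 2.17. Strand setting and annotation release are not given in the sources used here. The authors also deposited log2 normalized values (TMM and voom), used here as an alternative only. The combined and single count tables held 156068 of 156068 equal values, and 0 columns of per-sample values were left out.

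The counts were scaled to CPM by TMM (edgeR 4.0.16, R 4.3.3), and the log2 scale used an offset of 0.5 for the count and of 1 for the library size. All 14225 genes whose mean CPM reached 1 were tested for spread over the 4 counts with a chi-square statistic (3 degrees of freedom, scipy 1.17.1) with Benjamini-Hochberg adjustment at 0.05. The test was checked on simulated counts. A tumor was called apart when the Dixon ratio of log2 CPM exceeded 0.829. At these depths 3 counts, the limit that a count of 0 allows, are 0.330 to 0.370 CPM. Intervals cover counting error only, since reads carried no molecular identifiers.

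Positions, lengths and overlaps came from GENCODE M21 (37693 of 39017 gene IDs matched), and near-identical stretches (at least 80 nt at 97% identity) from BLAST 2.17.0. Named were all 40 genes and, from each further list, the 3 genes with the highest mean CPM and the 3 with the widest range. A gene meeting both parts of the rule counts under both. All 198 list entries were matched, 5 of them by identifier. The choice of members rested on their known roles and not on their values. Members and lists were, however, chosen with earlier results of these data known. Alternatives were DESeq2 1.42.0 size factors, total counts, other filters, 2 added to each count, the deposited log2 values, a Poisson likelihood ratio test, other lengths, subtraction of the epithelial or mitosis mean, and leaving out each tumor. Counts of genes highest or lowest per tumor after such subtraction were added after the data were seen. Protein sequences were not used here, and 1 further allele of the model is not reported here.

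The marker lists were epithelial, alveolar type 2, alveolar type 1, club, ciliated, pan-leukocyte, macrophage, alveolar macrophage, T cell, B cell, plasma cell, endothelial, fibroblast and red blood cell.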

Additional observations from a re-analysis of the deposited data

Results flagged for a closer look

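Of 78 values examined by the Dixon ratio over 4 tumors, 40 of them the single genes, 6 had 1 tumor far from the other three, and chance alone passes about 1 in 20 such groups. Among the 40 genes these were 3, against 5.86% of the genes tested. Mcm10 was high in tumor 1 (17.2 CPM against 11.2 to 11.8), Prim2 was low in tumor 4 (14.0 CPM against 23.1 to 24.5) and Fen1 was low in tumor 4 (25.7 CPM against 36.6 to 39.2). The ratio of Chaf1a to Chaf1b per kilobase was high in tumor 1 (0.92). The mean log2 CPM of the alveolar type 2 list was low in tumor 1 (10.32), and that of the T cell list was high in tumor 3 (1.88).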

How the results depend on the processing

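No paired analysis was possible because the 4 tumors form 1 group. Tumor 1 minus tumor 4 kept its direction under the other scalings by library size, but was -0.020 after subtraction of the epithelial mean, that is reversed, and 0.00087 after subtraction of the mitosis mean. After these subtractions, added after the data were seen, 1 and 6 genes were highest in tumor 1 (4.09% and 6.83% of the genes tested) and 19 and 13 lowest in tumor 4 (6.36% and 4.25%). With total counts 7 genes reached 2-fold and 5 had 1 tumor apart, but the shares of the genes tested under that scaling are not given here. With the union of exons the highest over lowest subunit was 2.28 for Rfc2 to Rfc5 and 1.05 for ribonucleotide reductase, against 3.28 and 2.14.

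Leaving out 1 tumor gave 24 to 31 genes beyond counting noise, with the fewest without tumor 4, and 1 to 4 genes of at least 2-fold, with 1 without tumor 1 and 1 without tumor 4. Of the single calls, Chaf1b was lost under the likelihood ratio test, with no filter, with total counts and without tumors 2, 3 or 4, and Prim1 with total counts and without tumors 2 or 4. Leaving out 1 tumor also ended the calls named in the report and, for Tyms, the call without tumor 4 (adjusted p 0.050), while Gins3 was called without tumor 1 or 2 (0.037 and 0.029), and with total counts Gins3, Gins4 and Pole2 were called. Genes lowest in tumor 4 numbered 30 to 36 and genes highest in tumor 1 25 to 29 when another tumor was left out. A gene lowest or highest in a tumor stays so when another is left out, apart from small changes of scaling. These numbers could therefore hardly fall, and they do not test the order. The cause of the order was not tested. At these totals, ranges such as that of Gins1 could not be told from counting error.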

Other observations

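Marker lists that entered no comparison varied as follows. The mean log2 CPM of club cell markers was 3.05 in tumor 1 and 5.32 to 6.20 in the others, that of ciliated cell markers 0.56 against 1.49 to 2.38, and that of alveolar type 1 markers ran from 6.44 to 7.52. By this mean, alveolar macrophage markers were highest in tumor 3 (5.37 against 3.67 to 4.30), as were red blood cell markers (4.02 against 2.50 to 2.94), macrophage markers (5.37 against 4.84 to 5.07) and endothelial markers (5.05 against 4.56 to 4.67). The mean of plasma cell markers, of which 3 of 4 were tested, was also highest in tumor 3 (6.80 against 5.01 to 5.45). Their summed CPM was instead highest in tumor 1, with 1322, 1076, 892 and 861 in tumors 1 to 4. Fibroblast markers were lowest in tumor 4 (5.02 against 5.33 to 5.42). The 1 B cell marker tested, of 5, had 2.32 in tumor 1 and 3.59 to 3.92 in the others.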
